A study of Mus musculus with 8 samples.

Results

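Macrophages grown from mouse bone marrow were compared with and without interleukin 4 (IL-4), on 2 control arrays and 2 IL-4 arrays of a set of 8. Bone marrow cells had been cultured on dishes for 7 days with M-CSF, the growth factor that turns marrow precursors into macrophages, and the IL-4 samples then received IL-4 for 24 hours while the control samples stayed in control medium. A further 2 samples had LPS, a bacterial cell wall component, for 24 hours and are used here as a second reference. The remaining 2 held cells grown on an endothelial monolayer for 7 days and entered the common estimate of the spread, the filter on dim probes and the choice of 1 probe a gene, but no comparison. All animals carried Tg(CAG-DsRed*MST)1Nagy on a B6.Cg background, so every group, controls included, had a transgene for the red fluorescent protein DsRed under the broadly active CAG promoter. Age and sex are not given in the sources used here. The labels do not say that each sample had its own animal or culture, so the p-values measure only the spread between these samples, which may be technical. The comparison covers every gene detected well above background by both control arrays or by both IL-4 arrays, which held for 23978 of the 26504 genes tested over the whole set.

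IL-4 is the cytokine of allergic and anti-helminth immunity that turns macrophages towards what is called alternative or M2 activation. It binds the IL-4 receptor alpha chain, which pairs with the common gamma chain or with the IL-13 receptor alpha 1 chain. The Janus kinases on these chains phosphorylate STAT6, which then dimerises, enters the nucleus and binds spaced palindromes in the promoters and enhancers of its targets. Textbook targets in mouse macrophages are arginase 1, the resistin-like protein Retnla, the chitinase-like protein Chil3 and the mannose receptor Mrc1. LPS acts through Toll-like receptor 4 and induces inflammatory cytokines and interferon response genes.

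Each value below is a level on the log2 scale relative to the 75th percentile of its array, so 0 is a signal equal to that percentile, and levels of different genes are not comparable because probes differ in brightness. A difference is the IL-4 mean minus the control mean, with ± its standard error from limma. A gene is said to have risen or fallen where the p-value adjusted over all 26504 genes was under 0.05. The share of spots well above background lay between 62.4% and 64.7% on the 4 arrays, no spot was saturated, and the arrays came from 1 slide. Replicates correlated at 0.995 in the control group and 0.997 in the IL-4 group over all genes. The 19 macrophage identity genes listed were all above background, among them Csf1r, the M-CSF receptor, at 9.19 and 9.24 in control and 8.89 and 8.91 in IL-4.

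IL-4 changed 4955 of the 23978 genes (20.7%), of which 2583 rose (10.8%) and 2372 fell (9.89%). Counts of calls in the gene lists below are to be read beside these shares. Over all 26504 genes tested, 5049 were called (19.0%), 2616 higher (9.87%) and 2433 lower (9.18%). At a difference of at least 2-fold beyond the median gene, 560 genes rose (2.34%) and 534 fell (2.23%). By fitted differences, 95 genes rose and 27 fell by at least 3 on the log2 scale. With a group below background put at its detection limit, these were 80 and 19, and 20 rose and 2 fell by at least 5. Groups of 2 did not overlap for 15420 genes (64.3%), so a lack of overlap alone says little here. Leaving out IL-4 replicate 1 gave 2169 calls over all genes tested, leaving out IL-4 replicate 2 gave 2004 and leaving out control replicate 2 gave 3086, while the count at 2-fold stayed between 994 and 1292 with any 1 of the 8 arrays left out.

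**Figure D1:**
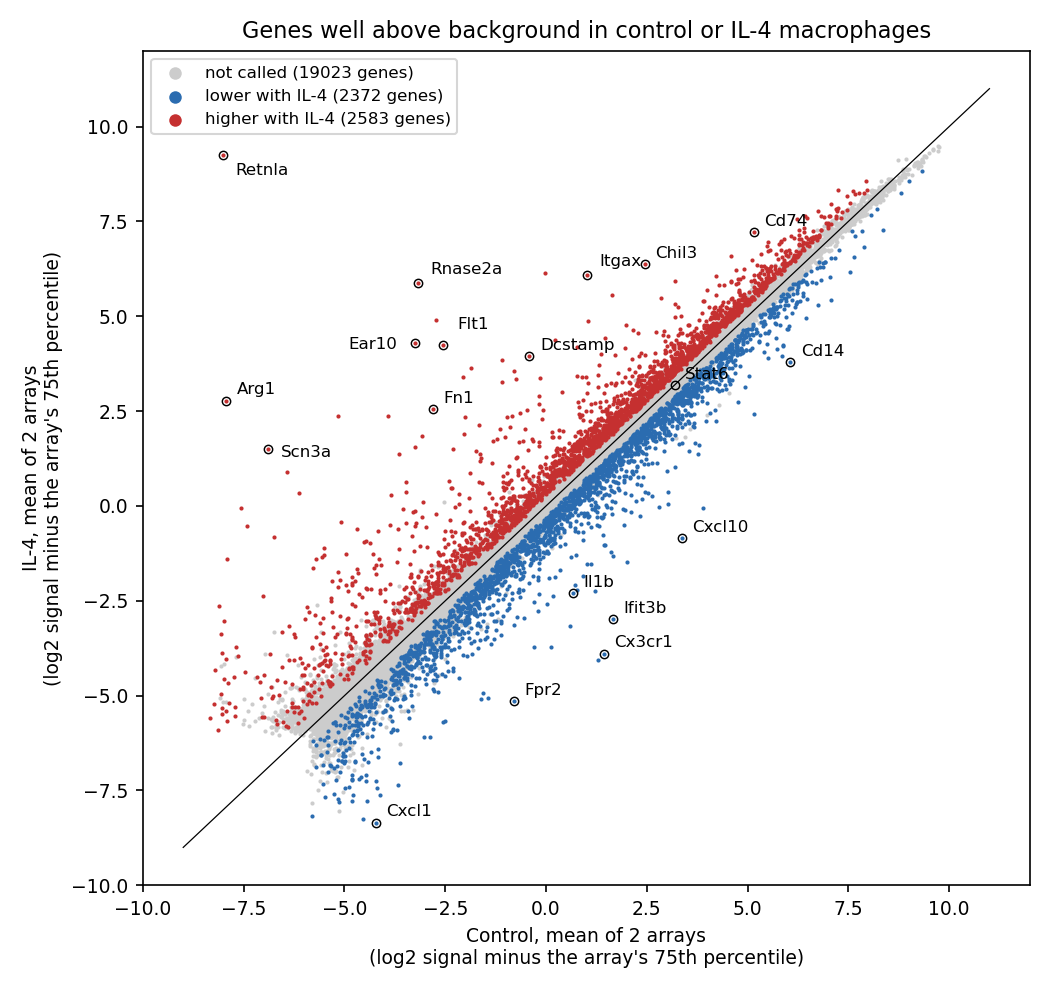
Mean level in IL-4 against mean level in control macrophages for the 23978 genes, in log2 signal relative to the array's 75th percentile, with 2583 genes higher in red and 2372 lower in blue. Retnla and Arg1 lie farthest above the diagonal of equal levels, and Cx3cr1, Ifit3b and Fpr2 farthest below it among the labelled genes. Genes dim in both groups are not shown, which leaves the corner at the lower left empty.

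Retnla, a secreted resistin-like protein of helminth infection, had the largest difference of all genes measured. Its levels were -8.06 and -7.95 in control and 9.20 and 9.32 in IL-4, and the control signals were not well above background. The IL-4 mean therefore lay at least 40060-fold above the lowest detectable signal of the control arrays (adjusted p = 6.2e-05). All such lower bounds are made this way, as the mean of the bright group over the higher of a gene's own signal and the lowest signal well above background on each dim array. Arg1, the arginase that splits arginine into ornithine and urea, stood at -7.96 and -7.89 in control and 2.73 and 2.83 in IL-4, at least 448-fold higher (adjusted p = 8.2e-07). Both genes thus went from signals not well above background to bright ones, with the IL-4 replicates close together. They count among the 23978 genes through the IL-4 arrays alone, and the closeness of their control signals is that of background. On the mm9 assembly, the Retnla probe lies at chr16:48844447-48844506 on the plus strand and the Arg1 probe at chr10:24636194-24636253 on the minus strand.

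The other genes named for a large fitted rise were of mixed function, and those not above background in control are given by their lower bound and have no rank. Rnase2a and Ear10, ribonucleases of the eosinophil-associated family, rose by 9.06 ± 0.09 and 7.55 ± 0.07. Scn3a, a voltage-gated sodium channel subunit, was not well above background in control and rose at least 186-fold, and its 4 other probes gave differences of 3.68 to 9.69. Apol7c, an apolipoprotein L, rose at least 63.3-fold, Tmem26, a transmembrane protein, at least 116-fold, and Rbp4, the plasma carrier of retinol, at least 45.5-fold. Adipoq, which encodes the adipocyte hormone adiponectin, rose at least 83.5-fold from levels of -6.11 and -6.13 to 0.35 and 0.36. Tarm1, a receptor of myeloid cells, rose at least 24.8-fold and was higher still with LPS, at 2.33 and 2.16 against -1.44 and -1.35 with IL-4. Gm8221, a predicted gene, rose by 7.52 ± 0.11.

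Flt1, the VEGF receptor 1, rose by 6.80 ± 0.23, from -2.88 and -2.24 to 4.24 and 4.23, and its 2 other probes gave 1.34 and 4.08, so its size depends on the probe. Vwf, von Willebrand factor, rose by 1.49 ± 0.09. Both are also endothelial genes. Of the 15 endothelial markers listed, 7 were above background in either group, and none of them besides Flt1 and Vwf was called by limma. Egfl7 was at -1.80 ± 0.46 and not called, and Tek was called lower (-1.82) although no array of either group had it well above background. Cdh5, which encodes VE-cadherin, differed by 0.06 and Kdr by -0.09, whereas Tie1, Emcn, Erg, Robo4, Sox17 and Sox18 were not well above background on both arrays of either group. The summed signal of the 10 markers tested, those near background included, went from 36.4 and 41.5 to 84.5 and 82.7 times the 75th percentile.

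The promoters of these genes were searched for the letters that STAT6 binds, TTCNNNNGAA, which reads the same on both strands. The search covered RefSeq promoters (GRCm38.p6) from 250 bases before to 50 after the annotated start. Shown are only those named genes that rose by at least 3 on the log2 scale and held a match. The rise was counted by the lower bound where control was not above background. The match is in capitals, with flanking bases.
Retnla: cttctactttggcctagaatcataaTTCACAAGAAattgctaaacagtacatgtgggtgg
Apol7c: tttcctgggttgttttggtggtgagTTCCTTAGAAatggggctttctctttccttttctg
Tmem26: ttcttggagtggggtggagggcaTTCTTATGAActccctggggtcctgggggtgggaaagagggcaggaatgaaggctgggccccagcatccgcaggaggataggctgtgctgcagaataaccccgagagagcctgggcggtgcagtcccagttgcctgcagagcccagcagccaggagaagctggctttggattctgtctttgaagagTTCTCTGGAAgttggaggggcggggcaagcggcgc
Rbp4: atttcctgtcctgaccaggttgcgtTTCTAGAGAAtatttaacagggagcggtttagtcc
Awat1: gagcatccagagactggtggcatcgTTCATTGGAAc
Itgax: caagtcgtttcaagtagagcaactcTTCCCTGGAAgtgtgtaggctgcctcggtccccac
Pdcd1lg2: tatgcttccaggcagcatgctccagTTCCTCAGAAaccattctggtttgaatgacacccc
Ccl17: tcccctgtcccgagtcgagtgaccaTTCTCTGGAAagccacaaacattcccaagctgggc
The positions of these stretches are chr16:48842439-48842498 (Retnla, plus strand), chr15:77533353-77533412 (Apol7c, minus strand), chr10:68723496-68723739 (Tmem26, plus strand), chr19:38125407-38125466 (Rbp4, minus strand), chrX:100572261-100572296 (Awat1, plus strand), chr7:128129398-128129457 (Itgax, plus strand), chr19:29410812-29410871 (Pdcd1lg2, plus strand) and chr8:94810274-94810333 (Ccl17, plus strand). In Retnla the match began 145 bases before the start, in Itgax 127, in Pdcd1lg2 82 and in Apol7c 72. Tmem26 had 2 matches, 227 and 41 bases before its start. Many named genes with a rise of this size are absent because no match was found. Among them were Arg1, Rnase2a, Ear10, Scn3a, Flt1, Fn1, Slc7a2, Ccl24, Cish, Socs1, Socs2, Chil3 and Egr2. This says only that these letters were not found in the window searched.

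The share of genes with such a match grew with the size of the rise. Among 12352 measured genes with a promoter in the table, 6.92% held TTCNNNNGAA, against 8.01% of all 27025 genes in the table. With a group below background put at its detection limit, a match was found in 35 of the 335 genes that rose by at least 1, 16 of those that rose by at least 2 (14.95%) and 11 of the 44 that rose by at least 3 (25%). It was found in 22 of the 358 genes that fell by at least 1 and 1 of the 16 that fell by at least 3. By fitted differences the share at 3 was 12 of 53 (22.6%). The groups are nested and a match is a description of letters, not of binding, which these data did not measure. The letters were not particular to rising genes. They were in 6 of the 40 interferon response genes with a promoter (15%), a list described below in which 45 of 52 fell. Among the alternative activation genes listed, 7 of the 22 with a promoter held a match. Most of that list was compiled from what IL-4 is known to induce. It shares members such as Retnla and Tmem26 with the rising genes above, so its share is no independent result.

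**Figure D2:**
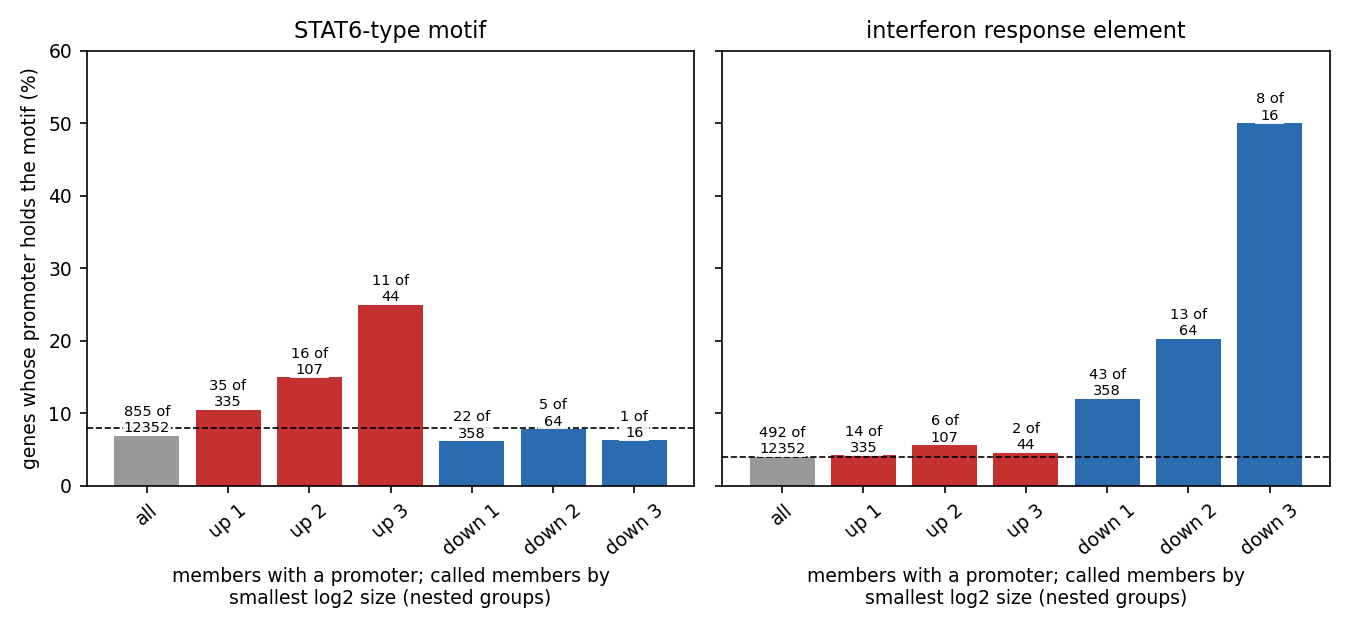
Percentage of genes whose promoter holds the STAT6-type letters (left) or the interferon response element (right), for all measured genes with a promoter and for the called genes that rose (up) or fell (down) by at least 1, 2 or 3 on the log2 scale, a group below background being put at its detection limit, with the counts above each bar. The dashed line is the percentage over all promoters in the table, and the bars for STAT6-type letters increase to 25% on the rising side while those for the interferon element increase to 50% on the falling side.

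Within the IL-4 receptor pathway, 3 feedback inhibitors had the largest rises. Of 24 genes, 6 rose and 8 fell. Cish, a SOCS-family inhibitor of cytokine receptors, stood at -1.91 and -2.11 in control and 2.28 and 2.40 in IL-4, a rise of 4.35 ± 0.11 (adjusted p = 3.0e-05). Socs2 went from -3.50 and -3.44 to 0.66 and 0.60, a rise of 4.10 ± 0.15. Socs1, the inhibitor that binds Janus kinases, went from -0.61 and -0.87 to 3.24 and 3.45, a rise of 4.09 ± 0.12. Socs3, which curbs IL-6 signalling, fell by 0.86 instead, and was 6.81 above control with LPS. For all 4 inhibitors both IL-4 arrays lay on the same side of both control arrays, as for 64.3% of the 23978 genes.

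Among the receptor chains, Il4ra, the IL-4 receptor alpha chain, fell from 1.07 and 1.16 to 0.42 and 0.32 (difference -0.74 ± 0.08, adjusted p = 0.0026), but its second probe gave -0.02, so the 2 probes disagree on the size. Il13ra1 fell by 1.39 and Il2rg, the common gamma chain, rose by 0.32. The decoy receptor Il13ra2 differed by -0.71 ± 0.35 (adjusted p = 0.23). Of the kinases on these chains, Jak2 rose by 0.90 and Jak3 fell by 0.61, while Jak1 (0.11 ± 0.09) and Tyk2 (-0.33 ± 0.16) were not called. Stat6 itself had levels of 3.17 and 3.21 in control and 3.21 and 3.18 in IL-4, a difference of 0.00 ± 0.08 (adjusted p = 0.98), and its 2 other probes gave -0.16 and -0.08.

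Other members sat further down the pathway or beside it. Stat5a rose by 0.41, and Stat3 (-0.35) and Stat5b (-0.16) were not called. The kinase gene Pik3cg fell by 1.22 and the phosphatase genes Inpp5d and Ptpn6, which damp receptor signals, fell by 0.62 and 0.44. Differences of Irs2 (0.23), Ptpn1 (0.09), Pik3cd (-0.06) and Akt1 (-0.06) were within 2 standard errors of 0. Irs1 was not well above background in either group.

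The effector genes of alternative activation rose almost as a block. Of the 34 genes, 28 rose and 2 fell, with a median difference of 2.39 against 0.0047 over all 23978 genes. Most of this list was compiled from what IL-4 is known to induce. Beyond Retnla, Arg1, Tmem26 and Flt1, Fn1, fibronectin, rose from -3.03 and -2.57 to 2.56 and 2.53 (5.35 ± 0.18). Pdcd1lg2, the inhibitory PD-1 ligand PD-L2, rose from -2.91 and -3.27 to 1.80 and 1.88 (4.93 ± 0.14), and its second probe gave 5.65. Slc7a2, a cationic amino acid transporter that carries arginine, rose by 4.68 ± 0.12 and Ccl24, the eosinophil chemokine eotaxin 2, by 4.38 ± 0.07. Chil3, the chitinase-like protein Ym1, went from 2.50 and 2.39 to 6.34 and 6.41 (3.93 ± 0.08). Mrc1, already bright in control at 5.27 and 5.35, rose by only 0.84 ± 0.10, to 6.13 and 6.17.

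The 2 members that fell were Ch25h, the cholesterol 25-hydroxylase (-1.40), and F13a1, a coagulation factor XIII subunit (-1.36). Members of small counts such as these are named after their values were seen. Those not called were Cd209a (-1.04 ± 0.71), Cd209d (-0.15), Il1rn (0.08) and Tgm2 (0.13). Alox15, Ccl22, Cd163 and Ucp1 of the same list were not well above background on both arrays of either group.

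**Figure D3:**
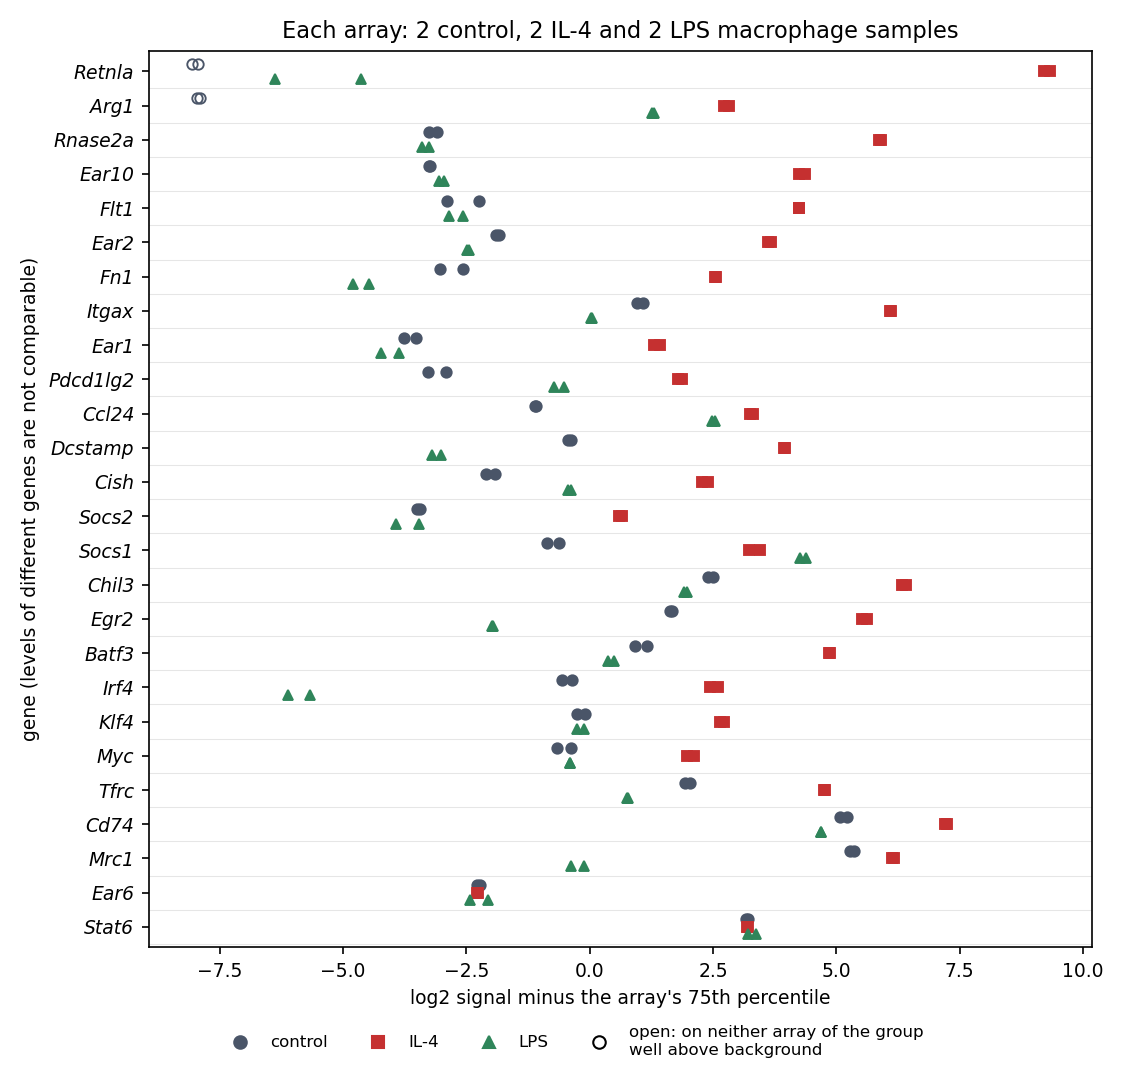
Levels of 26 named genes on each control, IL-4 and LPS array, in log2 signal relative to the array's 75th percentile, with open symbols where the gene was on neither array of a group well above background. IL-4 squares lie to the right of both control circles for all genes shown except Ear6 and Stat6, whose symbols coincide, and the LPS triangles of Irf4, Egr2 and Mrc1 lie far to the left.

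The ribonuclease A family, small secreted RNA-cleaving enzymes of which the Ear genes are the rodent eosinophil-associated branch, had 13 measured members, of which 9 rose and none fell by the limma test (1 fall without control replicate 2). Rnase2a went from -3.25 and -3.09 to 5.86 and 5.91 and Ear10 from -3.26 and -3.24 to 4.24 and 4.36. Ear2 rose from -1.83 and -1.90 to 3.62 and 3.67 (5.51 ± 0.07) and Ear1 from -3.76 and -3.51 to 1.31 and 1.43 (5.01 ± 0.15). Smaller rises were seen for Rnase6 (1.94), an antimicrobial ribonuclease, the angiogenin genes Ang2 (0.96), Ang (0.78) and Ang4 (0.68), and Rnase4 (0.63). Rnase2b was not above background in control and at -5.30 and -5.01 in IL-4, at least 1.83-fold higher, but its difference was not called (adjusted p = 0.099). Rnase10 (-0.50 ± 0.17) and Rnase1 (-0.03 ± 0.13) were not called either.

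Ear6 stood apart from its closest relatives, at -2.21 and -2.28 in control and -2.26 and -2.28 in IL-4, a difference of -0.02 ± 0.13 (adjusted p = 0.93). The probes of Ear2 and Ear6 are shown because they share 40 of the 45 bases over which they overlap, and yet one rose and the other did not. Capitals mark the differing bases of the overlap.
Ear2: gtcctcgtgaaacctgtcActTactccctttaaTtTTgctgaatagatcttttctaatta
Ear6: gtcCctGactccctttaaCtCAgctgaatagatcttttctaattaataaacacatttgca
The Ear2 probe lies at chr14:44681119-44681178 and the Ear6 probe at chr14:52474253-52474312, both on the plus strand of mm9. Near-identical family members can share signal on an array, so the sizes for single Ear genes are uncertain. Other eosinophil markers were measured beside them. Of the 8 listed, Epx, Prg3 and Alox15 were not above background on both arrays of a group, and Prg2 (0.14), Il5ra (0.37) and Ccr3 (-0.13) were not called. Siglecf, a sialic acid-binding lectin also made by alveolar macrophages, rose by 2.76 ± 0.16. The summed signal of the 7 eosinophil markers tested, Ear6 included, was 2.01 and 1.84 in control and 2.45 and 2.55 in IL-4.

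Transcription factors of macrophage activation moved in both directions. Of 48, 22 rose and 11 fell, with a median of 0.35. The fallen counted 5 without IL-4 replicate 1 and 6 without IL-4 replicate 2. Egr2, a zinc finger factor, rose from 1.66 and 1.62 to 5.52 and 5.62 (3.93 ± 0.10), and Batf3, a bZIP factor of dendritic cell development, from 1.17 and 0.91 to 4.88 and 4.85 (3.82 ± 0.11). Bhlhe40 rose by 3.31, Ppargc1b, the PPAR gamma coactivator 1 beta that drives mitochondrial oxidation, by 3.1, Irf4 by 2.98, Klf4 by 2.86 and Myc by 2.56. Pparg, the nuclear receptor for fatty acids, rose by 1.06 ± 0.10 from an already bright 4.14 and 4.19. All of these had IL-4 levels above both control arrays, while control and IL-4 did not overlap for 64.3% of the 23978 genes.

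Chemokine ligands moved in both directions. Of 25, 7 rose and 12 fell (median -0.75). The ligands that rose most were Ccl24, Ccl7 (3.80), Ccl8 (3.12) and Ccl17 (3.03 ± 0.21), which act on eosinophils, monocytes and T helper 2 cells. Cxcl10, the interferon-induced ligand of CXCR3 on T cells, fell from 3.36 and 3.38 to -0.82 and -0.89 (-4.23 ± 0.12), and its second probe gave -4.21. Cxcl1, a neutrophil chemokine, went from -4.01 and -4.43 to signals not well above background, at least 3.66-fold lower. The platelet chemokine genes Pf4 and Ppbp fell by 1.31 and 0.98.

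Of 38 chemokine and chemoattractant receptors, 16 fell and 7 rose (median -0.26). Cx3cr1, the fractalkine receptor of monocytes and resident macrophages, had the largest fall of any gene with a symbol, from 1.39 and 1.47 to -3.95 and -3.84 (-5.33 ± 0.10, adjusted p = 1.8e-05), and its second probe gave -4.89. Fpr2 and Fpr1, receptors for bacterial formyl peptides, fell by 4.34 and 3.37. Cxcr3 fell by 2.51 and Gpr34, a lysophosphatidylserine receptor, by 2.44. Ltb4r1, the leukotriene B4 receptor, rose by 2.83. For each of these 6 receptors both IL-4 arrays lay on the same side of both control arrays, as for 64.3% of the 23978 genes.

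Cytokines, growth factors and their receptors counted 13 rises and 26 falls among 55 (median -0.29), with 16 falls without IL-4 replicate 1 and 14 without IL-4 replicate 2. Il1b, the inflammasome cytokine, fell from 0.79 and 0.56 to -2.32 and -2.26 (-2.97 ± 0.18). Tnf fell by 0.78, from 1.26 and 1.17 to 0.44 and 0.43. Edn1, endothelin 1, was not above background in control and rose at least 6.24-fold, Il31ra, a cytokine receptor chain, rose by 3.42 and Hbegf, an EGF-family ligand, by 2.09. Il1r1, the IL-1 receptor, rose by 3.0 from levels that were above background on 1 of the 2 control arrays. In the classical activation list, 17 of 32 fell and 8 rose (median -0.78). Nos2, inducible nitric oxide synthase, was at 0.24 and 0.04 in control and -0.07 and 0.08 in IL-4 (-0.13 ± 0.10, adjusted p = 0.44).

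Sensors of bacteria and nucleic acids mostly fell where they changed, with 14 falls and 4 rises among 33 (median -0.19). Cd14, the LPS co-receptor, went from 6.12 and 6.01 to 3.71 and 3.88 (-2.27 ± 0.13). Tlr5, the flagellin receptor, fell by 2.10, Tlr2, the lipoprotein receptor, by 2.02, and Nod2 and Nod1, cytosolic peptidoglycan sensors, by 1.35 and 1.02. The 4 that rose did so by little, namely Tlr1 (0.42), Pycard (0.36), Tlr4 (0.35) and Sting1 (0.27). The falls counted 10 without IL-4 replicate 1 and 9 without IL-4 replicate 2, and none of the 4 rises was called by limma without IL-4 replicate 1 or IL-4 replicate 2, with 2 called without control replicate 1 and 1 without control replicate 2.

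Interferon response genes were lower almost throughout. Of 52, 45 fell and none rose by the limma test, with a median difference of -1.13, and between 38 and 41 fell with any 1 of the 4 arrays left out. Ifit3b, of the interferon-induced tetratricopeptide repeat family that binds foreign RNA, went from 1.71 and 1.61 to -2.91 and -3.05 (-4.64 ± 0.08, adjusted p = 1.2e-05). Its neighbour Ifit3 fell from 3.96 and 3.83 to -0.06 and -0.03 (-3.94 ± 0.08), Ifit1bl1 by 3.84 and Ifit1 by 3.0. Oasl1, of the oligoadenylate synthetase family, fell by 3.50. Ddx58, which encodes the RNA sensor RIG-I, fell by 1.21 and Bst2, the virus-tethering protein tetherin, by 0.45. With LPS the same genes had a median of 2.56 above the same 2 control arrays, so the median interferon gene lay below control with IL-4 and above it with LPS.

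The guanylate-binding proteins and immunity-related GTPases, which attack vacuoles of intracellular microbes, showed a smaller shift of the same sign. Of 16, 11 fell and 1 rose (median -0.85), and 7 fell without IL-4 replicate 2. Gbp5 fell by 1.39, although its second probe gave -0.25, Gbp4 by 1.37, Irgm2 by 1.19, Gbp7 by 1.00, Igtp by 0.96 and Tgtp1 by 0.93. Gbp2 was the one that rose, by 0.46 ± 0.08, a call that was lost with any 1 of the 4 arrays left out.

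The interferon response element, searched as GAAANNGAAA on both strands, is shown in the promoters of the named genes that fell by at least 3 and hold it. They are genes of the interferon list except Pilrb1, a paired receptor gene of myeloid cells. The match is in capitals, as GAAA or as its reverse complement TTTC.
Ifit3b: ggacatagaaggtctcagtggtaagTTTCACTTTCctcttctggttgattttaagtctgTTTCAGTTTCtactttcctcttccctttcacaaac
Cxcl10: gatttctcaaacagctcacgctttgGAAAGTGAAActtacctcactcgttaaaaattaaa
Ifit3: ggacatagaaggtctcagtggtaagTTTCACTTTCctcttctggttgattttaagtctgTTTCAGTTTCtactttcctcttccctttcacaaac
Ifit1bl1: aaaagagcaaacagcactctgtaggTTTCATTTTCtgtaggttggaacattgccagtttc
Pilrb1: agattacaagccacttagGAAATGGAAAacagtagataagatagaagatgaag
Ifit1: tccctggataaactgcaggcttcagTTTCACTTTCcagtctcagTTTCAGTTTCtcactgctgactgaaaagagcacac
The positions of these stretches are chr19:34607744-34607837 (Ifit3b, plus strand), chr5:92349068-92349127 (Cxcl10, minus strand), chr19:34583348-34583441 (Ifit3, plus strand), chr19:34602038-34602097 (Ifit1bl1, minus strand), chr5:137858247-137858299 (Pilrb1, minus strand) and chr19:34640760-34640838 (Ifit1, plus strand). The stretches of Ifit3 and Ifit3b are the same 94 letters. The element was found in 23 of the 40 interferon response genes with a promoter (57.5%), against 3.99% of all genes in the table and 3.98% of measured genes. With a group below background put at its detection limit, it was in 43 of the 358 genes that fell by at least 1, 13 of the 64 that fell by at least 2 and 8 of the 16 that fell by at least 3 (50%). By fitted differences the last share was 8 of 22 (36.4%). Among genes that rose by at least 3 it was in 2 of 44. The 2 motifs had overlapping matches in 18 of the 95 promoters that held both. The interferon list was compiled from genes known to respond to interferon, not by this element. It shares members such as Ifit3b and Cxcl10 with the falling genes above, so its share is no independent result.

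**Figure D4:**
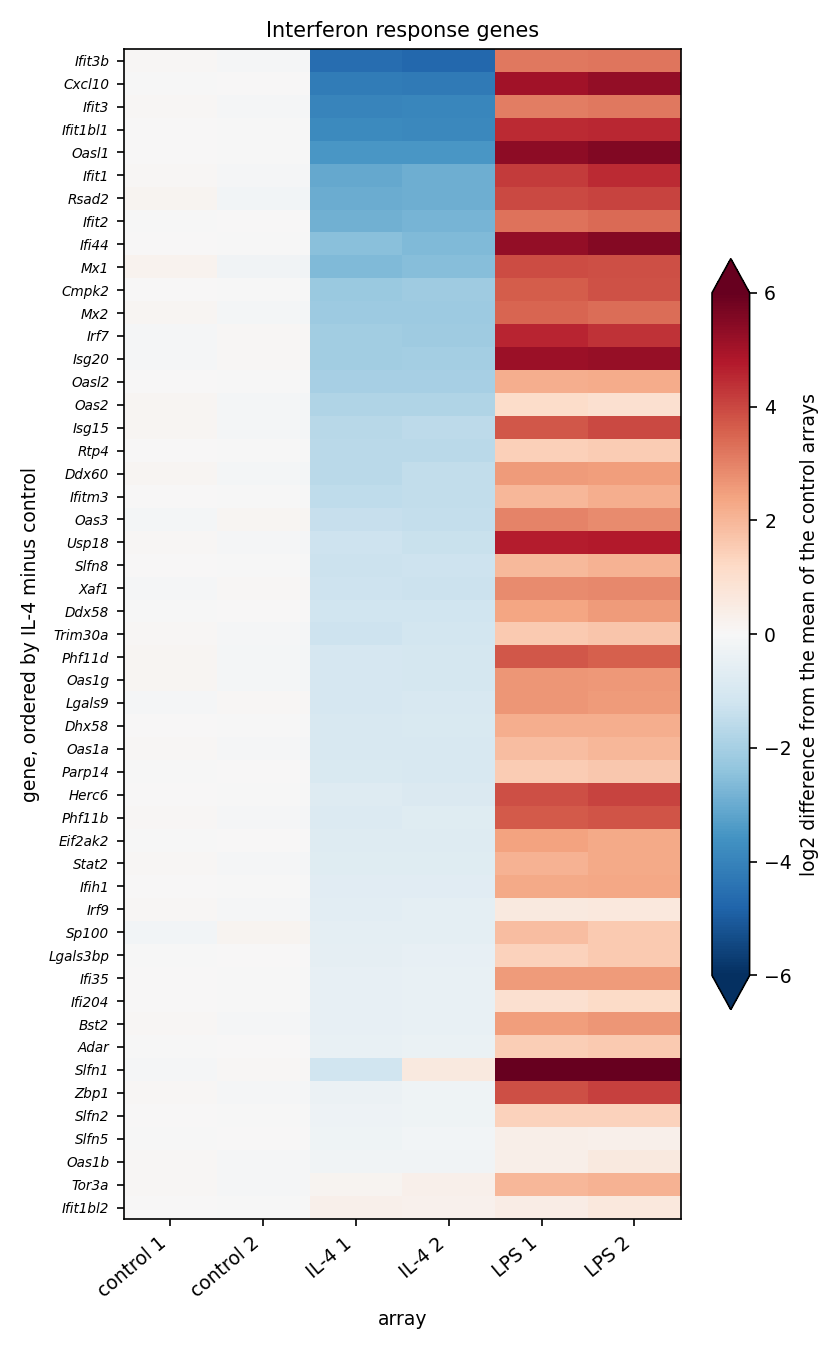
Differences from the mean of the 2 control arrays for 51 of the 52 interferon response genes on each control, IL-4 and LPS array, on the log2 scale and ordered by the IL-4 difference. Both IL-4 columns are blue (lower) except for Tor3a and Ifit1bl2, which were not called, and Slfn1, whose IL-4 arrays lay on opposite sides of the control mean, while both LPS columns are red (higher).

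Of 19 genes of antigen presentation by MHC class II, 10 rose and 2 fell, with a median of 0.34. Ciita, the master regulator of class II genes, went from -2.36 and -2.16 to 0.05 and -0.11 (2.23 ± 0.46). The LPS arrays, which enter its standard error, were at -4.28 and -2.77. Cd74, the invariant chain, rose from 5.08 and 5.22 to 7.21 and 7.24 (2.07 ± 0.11) and H2-Ab1, a class II beta chain, from 5.49 and 5.55 to 6.96 and 6.95. The peptide-loading genes H2-DMa, H2-DMb1 and H2-DMb2 rose by 2.21, 1.66 and 1.62. The 2 that fell were Cd86, a T cell costimulator (-0.78), and H2-Ob, of the loading modulator H2-O (-0.55). The falls counted 3 without control replicate 2 and 1 with any 1 of the other 3 control and IL-4 arrays left out.

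MHC class I presentation moved less, with 8 rises and 2 falls among 20 and a median of 0.12. Psmb10, an immunoproteasome subunit, rose by 0.91, the endoplasmic chaperone genes Calr and Pdia3 by 0.87 and 0.77, and the trimming peptidase gene Erap1 by 0.72. Cd1d1, which presents lipids, fell by 1.20, and Nlrc5, the class I transactivator, fell by 0.58, with a second probe at -0.03. The rises counted 3 with IL-4 replicate 1 left out, 5 with control replicate 1 left out, and 2 with the second replicate of either group left out. The falls counted 1 with either IL-4 array left out.

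Of 31 genes of arginine, proline and polyamine metabolism, 12 rose and 3 fell (7 rises without IL-4 replicate 1 or IL-4 replicate 2). Besides Arg1 and Slc7a2, the arginine transporter Slc7a1 rose by 1.95, Gatm, which makes the creatine precursor from arginine, by 2.40, Aldh18a1, the first enzyme of proline synthesis, by 1.83, and Srm, spermidine synthase, by 0.85. The 3 that fell were the polyamine oxidase genes Smox (-0.69) and Paox (-0.56) and Oaz2 (-0.43), an antizyme that inhibits polyamine synthesis.

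Lipid genes split by pathway. Of 37 sterol and fatty acid synthesis genes, 20 rose and none fell by the limma test (median 0.42), with 12 rises without IL-4 replicate 1 or IL-4 replicate 2 and 13 without control replicate 2. Scd1, a fatty acid desaturase, was not above background in control and rose at least 3.17-fold, and Scd2 rose by 1.51, Cyp51 by 1.19, Sqle by 1.05 and Fads2 by 0.93. Of 18 LXR targets and cholesterol export genes, 7 fell and 3 rose (median -0.33). Apoc1 and Apoc2, lipoprotein components, fell by 1.82 and 1.61, Pltp by 1.07 and Abca1, the cholesterol exporter, by 0.94, while Abcg1 (0.78), Soat1 (0.70) and Nr1h3 (0.46) rose, with 1 rise called without IL-4 replicate 1, IL-4 replicate 2 or control replicate 2.

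Of 40 genes of fatty acid uptake and oxidation, 10 rose and 5 fell (median 0.11), with 5 rises without IL-4 replicate 1 or IL-4 replicate 2 and 1 fall with any 1 of the 4 arrays left out. The uptake genes Cd36 and Fabp4 rose by 1.33 and 1.12, and Hadhb, a subunit of the oxidation enzyme complex, by 0.69. Angptl4, an inhibitor of lipoprotein lipase, fell by 0.95.

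Respiratory chain subunits shifted slightly upwards, with 22 of 36 higher and none lower by the limma test (median 0.38). Leaving out IL-4 replicate 1 gave 7 rises, leaving out IL-4 replicate 2 gave 4 and leaving out control replicate 2 gave 9. Cycs, cytochrome c, rose by 1.09 ± 0.09, Cyc1 by 0.89, Atp5o by 0.80 and Atp5b by 0.63. In the citric acid cycle list 9 of 29 rose and 2 fell (2 rises with IL-4 replicate 1 left out, and 1 with IL-4 replicate 2 or control replicate 2 left out), led by Idh3a, an isocitrate dehydrogenase subunit (1.01). Acod1, which makes itaconate in inflammatory macrophages, fell by 0.86 and Pcx, pyruvate carboxylase, by 0.73.

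Of 34 glycolysis and hypoxia genes, 11 rose and 10 fell, with 7 rises without IL-4 replicate 1 and 6 without IL-4 replicate 2. Pfkp, a phosphofructokinase, rose by 1.63 and Slc2a1, a glucose transporter, by 1.12. Egln3, an oxygen sensor induced by hypoxia, fell by 1.5, the glucose transporter gene Slc2a3 by 1.18 and Aldoc, an aldolase, by 1.03.

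Of 26 genes of macrophage fusion and osteoclasts, 10 rose, 4 fell and 12 were not called, with a median of 0.12. The summed signal of the 28 tested was 1225.8 and 1145.4 in control and 1204.3 and 1267.6 in IL-4, although single genes rose by much. Dcstamp and Ocstamp, membrane proteins required for cell fusion, rose from -0.38 and -0.44 to 3.94 and 3.96 (4.36 ± 0.10) and from -2.01 and -2.08 to 1.85 and 1.92 (3.93 ± 0.11). Atp6v0d2, a proton pump subunit, rose by 2.61, Itgb3, the integrin beta 3, by 2.41 (second probe 1.39), Ctsk, cathepsin K, by 1.49 and Acp5, the tartrate-resistant phosphatase, by 1.29. Cdh1, E-cadherin, was not above background in control and rose at least 2.76-fold. The 4 that fell were Mmp14 (-1.39), Nfatc1 (-0.80), Tnfrsf11a (-0.70) and Cd81 (-0.43), with 1 fall called without IL-4 replicate 1 or IL-4 replicate 2 and 2 without control replicate 2. Nfatc1 and Tnfrsf11a encode the central factor and the receptor of osteoclast formation.

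Of 35 genes of matrix, proteases and coagulation, 15 rose and 9 fell. Mmp12, the macrophage elastase, rose from 0.06 and -0.35 to 3.23 and 3.51 (3.51 ± 0.18), Mmp13, a collagenase, by 2.36 and F7, coagulation factor VII, by 3.02. F3, tissue factor, rose at least 5.87-fold from levels not well above background. Thbs1, thrombospondin 1, fell by 2.05 and Col1a1, a collagen I chain, by 1.63. The fallen counted 6 without IL-4 replicate 2 or control replicate 2.

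Surface receptors of myeloid cells moved in both directions. Among 34 C-type lectins and scavenger receptors, 9 rose and 10 fell. Olr1, a scavenger receptor for oxidised lipoprotein, rose at least 4.43-fold, whereas Clec4e and Clec4n, lectins for mycobacterial and fungal glycans, fell by 2.19 and 1.90, and the scavenger receptor genes Marco and Stab1 by 1.6 and 1.45. Among 24 Fc receptor and TREM family genes, 8 fell and 3 rose. The paired receptor genes Pilrb1 and Pilra fell by 3.61 and 2.98 (the other probes of Pilra gave -3.85 to -0.05) and Fcgr1, the high-affinity IgG receptor, by 1.65. The 3 rises were Fcgr2b, the inhibitory IgG receptor (1.22), Cd300ld (1.14) and Cd300lb (1.00).

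Of the complement list, 6 of 19 fell and 3 rose. Itgax, the integrin CD11c and a receptor of complement fragments, went from 0.97 and 1.08 to 6.10 and 6.11 (5.08 ± 0.09), and Hc, complement C5 (at least 1.31-fold), and C3 (0.76) also rose. For Hc the flagged spot of 1 LPS array was left out of the fit. Cfb, complement factor B, fell by 2.03. Of 10 measured Ms4a genes, which encode membrane-spanning proteins, 5 fell and 2 rose. Ms4a6b and Ms4a4b fell by 2.79 and 2.42, Ms4a6c by 1.03, Ms4a14 by 0.58 and Ms4a7 by 0.39, while Ms4a8a rose at least 1.67-fold and Ms4a4a by 0.56. Without IL-4 replicate 1, IL-4 replicate 2 or control replicate 2 these counts were 3 and 1, and without control replicate 1 they were 3 and 2. Ms4a4c had a difference of 0.15 ± 0.13 with its brightest probe but -2.97 and -2.77 with 2 others, so its direction depends on the probe. Ms4a6d (0.25) and Ms4a3 (0.59) were not called.

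Iron, lipid mediator and antioxidant genes gave single large values. Tfrc, the transferrin receptor of iron uptake, rose from 1.94 and 2.03 to 4.76 and 4.77 (2.78 ± 0.09), and Slc40a1, the iron exporter ferroportin, fell by 1.6 ± 0.22. In the iron list 2 of 22 rose, the other being Slc48a1, a heme transporter (0.30), and 7 fell (3 without IL-4 replicate 2). The rises counted 1 without IL-4 replicate 1, IL-4 replicate 2 or control replicate 1. Ptgs1, cyclooxygenase 1, rose by 2.12, the prostaglandin E receptor genes Ptger2 and Ptger4 changed by 1.66 and -1.41, and Hpgd, which inactivates prostaglandins, fell by 2.40. In that list of 25, 7 rose and 6 fell. Slc7a11, the cystine transporter, rose by 2.15 and Nqo1 by 1.62 among 31 antioxidant genes, of which 9 rose and 6 fell (3 and 3 without IL-4 replicate 1 or IL-4 replicate 2).

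Of 40 lysosomal genes, 8 rose and 3 fell, with Atp6v1b2, a proton pump subunit, at 1.09 (1 LPS array left out of its fit) and Ctsl, cathepsin L, at 0.70. The rises counted 3 or 4 and the falls at most 1 with any 1 of the 4 arrays left out. Of 35 DNA replication genes, 8 rose and 2 fell, the latter being Cdc6 (-0.93) and Lig1 (-0.29), with 3 to 5 rises and 1 fall when any 1 of the 4 arrays was left out. Pcna, the polymerase clamp, rose by 1.06 and Rfc5, a subunit of the clamp loader, by 1.14, although the second probe of Rfc5 gave -0.44. Of 32 mitosis genes, 3 rose and 2 fell, with 1 rise without IL-4 replicate 1 and 0 without IL-4 replicate 2 by limma. Over all 23978 genes 20.7% were called, 10.8% higher and 9.89% lower, so calls were no more frequent among mitosis genes. Pttg1 and Ube2c fell by 0.70 and 0.67, Spc25 and Cdca8 rose by 0.44 and 0.34, and Tpx2 rose by 0.53 with a second probe at -0.23. The proliferation marker Mki67 differed by 0.29 ± 0.09 (adjusted p = 0.075).

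Macrophage identity genes fell more often than they rose, 10 against 1 of 19 (6 or 7 against 0 by limma with any 1 of the 4 arrays left out). Besides Cx3cr1, Cd14 and Fcgr1 these were led by Lyz2, lysozyme (-1.09), Mertk (-1.05) and Aif1 (-0.90), and Adgre1, a macrophage surface receptor, fell by 0.52. Csf1r differed by -0.32 ± 0.10 (adjusted p = 0.084). The summed signal of the 19 genes went from 3260.5 and 3322 to 2562 and 2694 times the 75th percentile.

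Markers of other cells were followed in the same arrays, since in bulk RNA fewer cells of a type and less RNA per cell cannot be told apart. Of 16 neutrophil genes, 7 fell and 2 rose (3 falls without IL-4 replicate 2 and 1 rise with any 1 of the 4 arrays left out), with Ly6g at -3.15 and Camp at -1.22, but their summed signal was 221 and 211 in control and 227 and 207 in IL-4. Of 11 monocyte genes, 5 fell, among them Ly6c1 (-2.26), while the 2 that rose, Chil3 and Fn1, are also alternative activation genes. Among 11 dendritic cell genes, Itgax, Batf3 and Cd24a rose, Kmo and Bst2 fell (1 fall with any 1 of the 4 arrays left out), and the defining genes Flt3 (0.15) and Zbtb46 (0.18) were not called. Of 8 measured erythroid and platelet genes, Epor, Pf4 and Ppbp fell and 5 were not called, while Klf1, Alas2 and Ahsp were not above background on both arrays of a group. The summed signal of the tested ones went from 68.0 and 60.2 to 25.6 and 26.5, and bright probes weigh most in such a sum. Of 14 T and NK cell markers 7 were measured and 1, Cd2, rose (0.58, at least 1.16-fold), a call lost without IL-4 replicate 1, IL-4 replicate 2 or control replicate 2, and Cd3d, Cd3g, Cd8a and Trac were not among those measured. Of the 4 measured mast cell and basophil genes 2 fell (1 with control replicate 1 or either IL-4 array left out), of 7 B cell genes 1 fell (Cd79b) and of 9 stromal genes 3 fell, with none higher by limma. Of the 8 measured osteoclast genes 6 rose and 1 fell (0 by limma with either IL-4 array left out), and the summed signal of the 10 tested was 20.9 and 21.6 in control and 90.6 and 92.4 in IL-4. Of those 10, Mmp9, above background on 1 control array and on no IL-4 array, was also called lower (-0.78). The part of such cells in the results above was not tested.

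**Figure D5:**
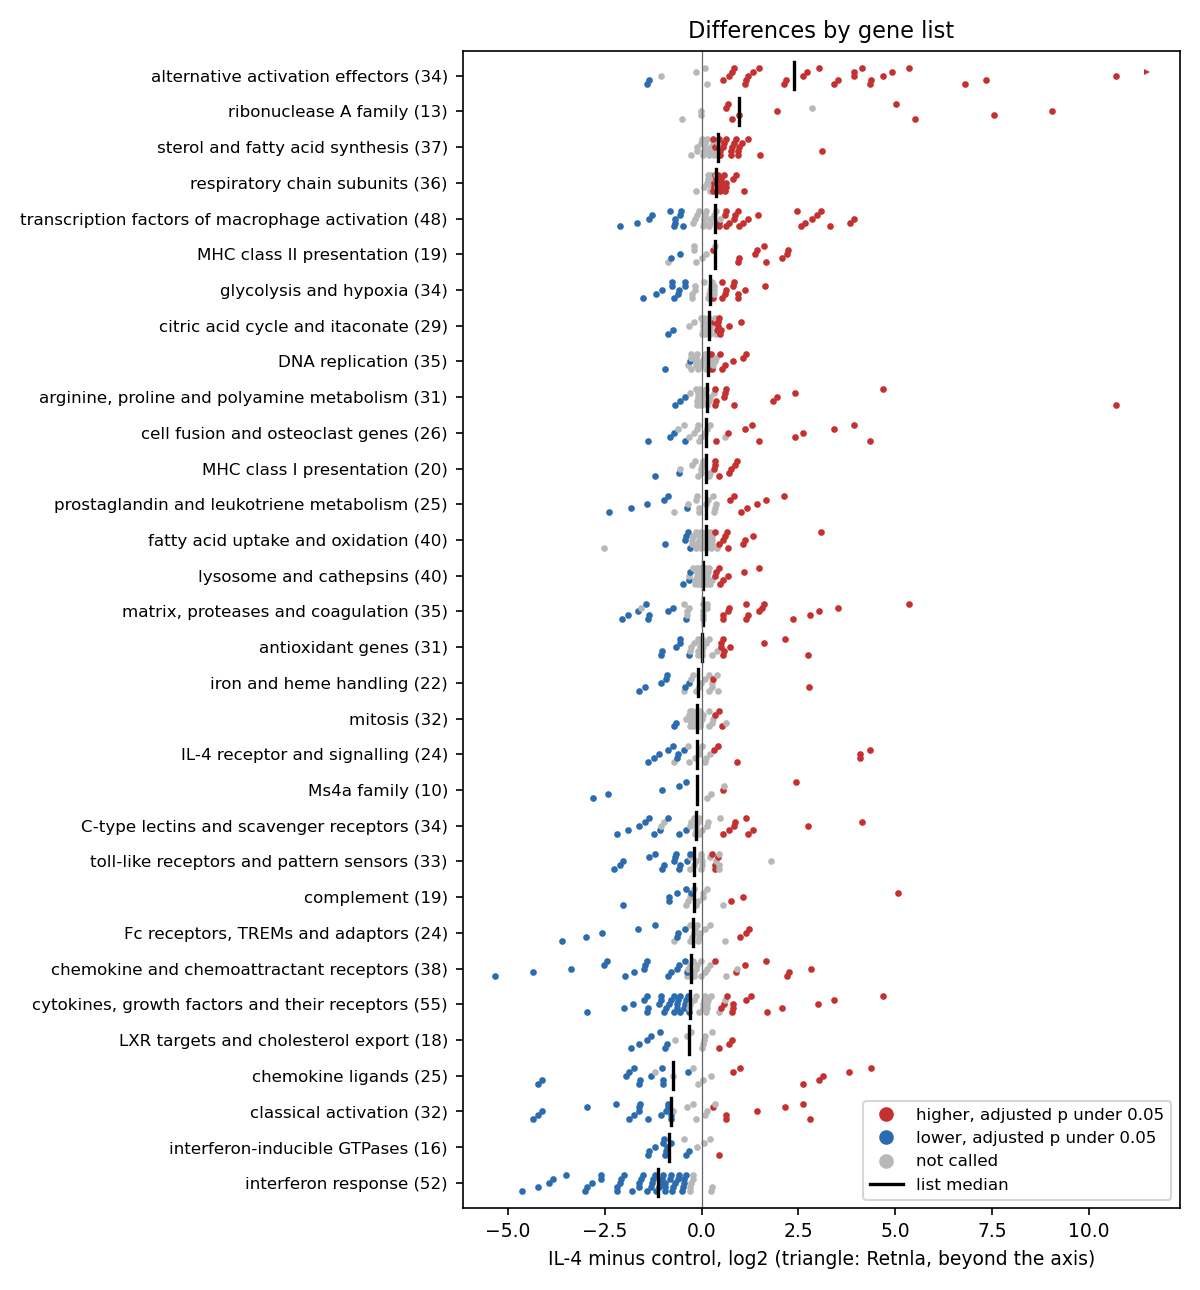
Differences between IL-4 and control for every measured gene of 32 lists, on the log2 scale, with called genes in red (higher) and blue (lower) and the median of each list as a bar. The lists run from alternative activation effectors, with a median of 2.39, to interferon response, with a median of -1.13, and Retnla at 17.27 lies beyond the axis.

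The direct comparison with LPS used the same fit. On the second LPS array 105 spots were of uneven intensity, against 0 to 5 on the other arrays. The 2 comparisons with control use the same 2 control arrays, so each is given by its own values. Between IL-4 and LPS, 13948 of 26504 genes differed (52.6%), 6832 higher in IL-4 (25.8%) and 7116 lower (26.8%). Of the 34 alternative activation genes, 27 were higher in IL-4 than in LPS and 4 lower. All but 1 of the 52 interferon genes were lower in IL-4, as were 15 of the 16 interferon-inducible GTPases. Of the 40 genes of fatty acid uptake and oxidation, 28 were higher in IL-4 and 6 lower, and of 40 lysosomal genes 29 were higher and 9 lower.

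Some genes stood above control with both stimuli. Arg1 reached 1.31 and 1.27 with LPS, and its IL-4 level was higher by 1.49 ± 0.07 (adjusted p = 3.5e-05). Socs1 was at 4.27 and 4.38 with LPS, above its IL-4 level by 0.98. Ccl7 was at 7.02 and 7.03 with LPS, against 2.13 and 2.15 with IL-4. Ccl17 was at -1.86 and -1.74 with LPS, and its difference between the stimuli of 0.13 ± 0.21 (adjusted p = 0.65) was not called. Other genes stood on opposite sides of control. Irf4 was at -5.68 and -6.11 with LPS, on 1 array above background, and 8.41 higher with IL-4. Egr2 was 7.54 higher with IL-4 than with LPS, Pparg 5.94, Mrc1 6.4 and Atp6v0d2 9.87. Each had LPS below and IL-4 above both control arrays, while IL-4 and control did not overlap for 64.3% of the 23978 genes.

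A group of genes crossed the detection limit. Of the genes above background on both IL-4 arrays and neither control array there were 227, of which 78 were called higher and 26 had a lower bound of at least 4-fold. Since such genes were measured through the group in which they are high, these counts describe the detection limit and support no direction. Those with the largest bounds were Retnla, Arg1, Scn3a, Tmem26, Adipoq, Apol7c, Rbp4 and Awat1, an acyltransferase of wax synthesis, at least 36.8-fold. In the other direction 173 genes were above background on both control arrays and neither IL-4 array, 69 of them called lower and 5 with a bound of at least 4-fold. The largest were Ppm1n (at least 9.15-fold lower), Chp2 (8.22), Antxr1 (5.53), Mdfi (5.52, not called) and Bank1 (5.34), a B cell adaptor whose second probe gave -3.82.

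Probes of one gene mostly gave the same direction. Of the 262 named genes, 61 had a further probe above background, and 52 of these were called. In 2 of the 52, Rfc5 and Tpx2, another probe had the opposite sign, at -0.44 against 1.14 for Rfc5 and -0.23 against 0.53 for Tpx2.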

How the data were processed

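Total RNA of 8 samples (4 groups of 2) was measured on 1-colour Agilent mouse arrays, 1 array a sample. The deposited scanner intensities come from Agilent Feature Extraction 10.7.3.1, per the file headers, and are background-subtracted processed signals with mm9 probe positions. A deposited table of log2 values for 34119 probes, made by the authors with RMA and Partek 6.4 per the submitters' processing notes, served as an alternative. On each array its values matched the log2 processed signals less 1 constant, with correlations of at least 0.999975. The constants lay between 4.72 and 5.65, and how they were set is unknown. The table is therefore the same signal with another offset for each array, on fewer probes.

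For the main values, control spots and outlier-flagged spots were left out, log2 of the processed signal was taken relative to each array's 75th percentile, and spots of one probe were averaged. Probes dim in all 4 groups, that is not well above background on 2 arrays of any group, were dropped. For a gene with several probes, the brightest on average over the 8 arrays was used, and levels of different probes were not compared. The 4 group means were fitted in limma 3.58.1 (R 4.3.3) over all 8 arrays, which share 1 estimate of the spread with 4 residual degrees of freedom, and p-values were adjusted by Benjamini-Hochberg over 26504 genes. With 2 arrays a group, the exact permutation test of a single gene cannot go below 0.333 two-sided, so single genes rest on this fit, and the number of arrays limits the precision. No pair of files was identical. The deviations of replicates of the same number correlated at 0.018 between control and IL-4, and at -0.16 to 0.052 over all pairs of groups. Such values cannot show whether samples shared an animal or batch, and the samples were fitted as unpaired.

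The genes named are the 12 highest and 12 lowest called genes with a symbol, every member of the IL-4 signalling, ribonuclease and Ms4a lists, up to 6 called members of each other list by size, the 8 highest lower bounds in each direction, a fixed panel and the compared paralogs. Other list members were named after their values were seen. A few genes that this rule names are not reported here. The members and lists were chosen with earlier results of these data known. Promoters are from RefSeq (GRCm38.p6), of which 12352 of 15723 genes with a RefSeq name had an entry.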

Additional observations from a re-analysis of the deposited data

How the results depend on the processing

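Of 5049 genes called over all genes tested, the count was 2667 with median centring (1411 higher, 1256 lower), 2833 in the deposited table (1519 higher, 1314 lower) and 3281 (1607 higher) with only the 4 control and IL-4 arrays in the fit. The number called at 2-fold or more was 1158, and 675 with normexp background correction and 652 with normexp and quantile normalization together. The cause of these changes was not tested. With 1 of the 8 arrays left out, the count ranged from 2004 (without IL-4 replicate 2) to 5270, with 949 to 2638 higher, 1055 to 2632 lower and 994 to 1292 at 2-fold. With the replicate number as a block, 3863 genes were called (1977 higher, 1886 lower), 1119 of them at 2-fold. The labels do not say what samples of the same number share. The difference from LPS was called for 10529 to 14713 genes over the settings that include the LPS arrays. Normexp moved the median of all genes to -0.10.

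Of 216 called genes with a value in the text, 166 kept direction and call under all 21 alternatives, and 2, Hc and Cd2, changed sign under one. The probe choice by brightness on the 4 arrays was added after seeing the data and gave 5050 calls. Of 1848 list counts over these alternatives, 1556 stayed within 1.5 times the count given. The sign changed, on the log2 scale, with normexp background correction for Cd2 (-0.13), Cdh5 (-0.10), Flt3 (-0.00048), Hc (-0.066), Il1rn (-0.064), Pik3cd (0.015) and Zbtb46 (-0.034), with quantile normalization for Ear6 (0.020), Rnase1 (0.016), Stat6 (-0.073) and Tgm2 (-0.0071), with median centring for Ear6 (0.0044) and Rnase1 (0.0021), with normexp and quantile normalization together for Ptpn1 (-0.013), Stat6 (-0.032) and Tgm2 (-0.0042), in the deposited table for Ear6 (0.0074), with the mean over probes for Ms4a4c (-1.86) and Stat6 (-0.077). Besides Hc and Cd2 these genes were not called. With 1 array left out, the differences that changed sign ranged from -0.056 to 0.0072 for Ear6, -0.030 to 0.19 for Il1rn, -0.015 to 0.48 for Irs2, -0.11 to 0.052 for Rnase1, -0.013 to 0.022 for Stat6, -0.13 to 0.26 for Cdh5, -0.13 to 0.012 for Pik3cd, -0.0017 to 0.31 for Flt3, -0.018 to 0.29 for Prg2 and -0.11 to 0.48 for Zbtb46.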
